A study of Mus musculus with 14 samples.

Results

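The genes of cytosolic nucleic acid sensing examined here are Cgas (also called Mb21d1), Tmem173 (also called Sting1), Tbk1, Ikbke, Irf3, Trex1 and Mavs, 7 genes chosen by name from a table of 18781. Of these, 6 had a row in the table and all 6 passed the filter on low values, while Trex1 was not analysed here. Their expression was compared between small intestinal organoids of 4 genotypes, which are epithelial cultures grown from mouse intestinal stem cells. Organoids were kept untreated in intesticult medium, and stranded mRNA libraries were sequenced. WT organoids (n = 4) carried ATG16L1flox/flox and RNaseH2Bflox/flox without Cre. Atg16l1ΔIEC organoids (n = 4) were ATG16L1flox/flox with VillinCre+/-, Rnaseh2bΔIEC organoids (n = 2) were RNaseH2Bflox/flox with VillinCre+/-, and Atg16l1/Rnaseh2bΔIEC organoids (n = 4) carried both floxed genes with VillinCre+/-. Villin-Cre acts in intestinal epithelium, and the controls lacked Cre, so the deletion and the presence of Cre cannot be told apart in any comparison with WT. The age of the mice and whether libraries of a genotype came from separate animals were not given in the labels, so p-values measure the spread between libraries, which may be technical.

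In this pathway, cGAS binds double-stranded DNA in the cytosol and makes the messenger cGAMP, which activates STING, the membrane protein encoded by Tmem173. STING recruits the kinases TBK1 and IKKε, and the transcription factor IRF3 is then phosphorylated and drives type I interferon genes. MAVS is the mitochondrial adaptor through which the RNA sensors RIG-I and MDA5 reach the same kinases, and the exonuclease TREX1 degrades cytosolic DNA. RNase H2, of which Rnaseh2b encodes a subunit, removes ribonucleotides from genomic DNA, and ATG16L1 is needed to build autophagosomes, which are among the routes by which STING is turned over. The comparisons here ask how the transcripts of the sensing machinery differed after loss of RNase H2, of epithelial autophagy, or of both.

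Values are the authors' normalized expression on a log2 scale, so a difference of 1 is a doubling. Low genes were pulled together between libraries in these values, so differences of low genes are understated, and depth is unknown. The library names placed WT in sequencing lane 1, Atg16l1ΔIEC and Rnaseh2bΔIEC in lane 2, and the Atg16l1/Rnaseh2bΔIEC libraries 1 and 2 in lane 2 with 3 and 4 in lane 1. In the genotypes with 4 libraries, libraries 1 and 2, and likewise 3 and 4, deviated together from their genotype mean. Their correlations across tested genes were 0.41 to 0.86 in 6 pairs, and for the Rnaseh2bΔIEC libraries this could not be checked. With lane as a covariate, the lane difference came only from Atg16l1/Rnaseh2bΔIEC libraries 1 and 2 against 3 and 4. It thus cannot be told apart from a difference between those pairs. Atg16l1 was 9.43, 9.54, 9.44 and 9.44 in WT, 6.87, 7.35, 6.75 and 6.73 in Atg16l1ΔIEC, 9.52 and 9.53 in Rnaseh2bΔIEC, and 8.37, 8.14, 8.57 and 8.47 in Atg16l1/Rnaseh2bΔIEC libraries. Rnaseh2b was 8.47, 8.41, 8.58 and 8.70 in WT, 8.71, 8.72, 8.58 and 8.48 in Atg16l1ΔIEC, 7.21 and 7.15 in Rnaseh2bΔIEC, and 7.92, 7.68, 7.79 and 7.84 in Atg16l1/Rnaseh2bΔIEC libraries. Each targeted transcript was lower in every library labelled for its deletion than in every WT library, and both sat between WT and the single deletion in Atg16l1/Rnaseh2bΔIEC organoids. Of 9 immune markers, the defining leukocyte genes Ptprc, Cd3e, Cd79a and Tyrobp lay between -1.97 and 0.53 in all libraries. The other 5 were higher, with Fcer1g at 1.69 to 1.75, Csf1r at 2.32 to 2.45, Lyz2 at 3.77 to 3.94, Itgam at 5.44 to 5.84 and Cd68 at 5.70 to 6.41. The summed level of the 9 ranged from 7.12 to 7.26 in WT and from 6.94 to 7.34 in Atg16l1/Rnaseh2bΔIEC libraries.

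To show the sequence in front of the sensor, the kinase and the RNA adaptor, the 250 bases before the RefSeq start of Cgas (chr9:78443238-78443487, minus strand), Tbk1 (chr10:121586795-121587044, minus strand) and Mavs (chr2:131233813-131234062, plus strand) of GRCm38.p6 are given 5′ to 3′ in the direction of the gene. Capitals mark the motifs found among the 5 searched on both strands, which were the interferon-stimulated response element (GAAA repeated after any 2 bases), the interferon-gamma activated site TTCNNNGAA, the CCAAT box, the GC box GGGCGG and the E-box CACGTG.
Cgas: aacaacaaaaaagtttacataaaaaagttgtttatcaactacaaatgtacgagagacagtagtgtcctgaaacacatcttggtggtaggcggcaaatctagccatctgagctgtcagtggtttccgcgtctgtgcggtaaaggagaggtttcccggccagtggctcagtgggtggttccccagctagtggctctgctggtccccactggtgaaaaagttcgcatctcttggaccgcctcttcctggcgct
Tbk1: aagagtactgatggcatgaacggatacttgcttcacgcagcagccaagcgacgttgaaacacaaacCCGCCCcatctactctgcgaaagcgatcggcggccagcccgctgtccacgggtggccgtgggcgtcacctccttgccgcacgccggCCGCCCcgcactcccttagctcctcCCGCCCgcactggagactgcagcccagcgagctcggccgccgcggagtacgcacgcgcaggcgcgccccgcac
Mavs: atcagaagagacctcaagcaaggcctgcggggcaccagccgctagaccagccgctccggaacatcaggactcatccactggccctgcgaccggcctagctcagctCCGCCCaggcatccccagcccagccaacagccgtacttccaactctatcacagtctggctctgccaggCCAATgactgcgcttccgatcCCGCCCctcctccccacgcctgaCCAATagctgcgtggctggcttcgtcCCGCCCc

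Windows of 5 members (these 3 with Ikbke and Irf3) were searched. The interferon-stimulated response element letters occurred in 0 of them and in 3.04% of 27025 promoters of the same length, and the activated site letters in 0 of them and in 7.18% of all. GC box letters, which 32.9% of all promoters hold, occurred 3 times in Tbk1, 3 times in Mavs and once in Irf3. Mavs also held 2 CCAAT boxes, a motif found in 34.5% of promoters. The Cgas window held none of the 5 motifs. These matches describe letters in a short window only.

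All 6 measured members were expressed above the filter, but at very different levels. Per kilobase of merged exon, the WT level on the log2 scale was 9.59 ± 0.07 (SD, n = 4) for Mavs, 8.91 ± 0.05 for Irf3, 8.23 ± 0.04 for Tbk1, 6.86 ± 0.09 for Ikbke, 6.61 ± 0.07 for Cgas and 3.74 ± 0.03 for Tmem173. Each neighbour in this WT order differed by more than the spread between libraries. The order was the same in the other genotypes, but in Atg16l1/Rnaseh2bΔIEC organoids Ikbke (6.79 ± 0.15, SD, n = 4) and Cgas (6.72 ± 0.09) were within their spread. Merged exons spanned 9018 bases for Ikbke and 3910 for Tbk1. Before division by length, WT means were 10.04 for Ikbke, 10.19 for Tbk1 and 8.66 for Cgas. The place of Ikbke, far from Tbk1 and near Cgas, thus depends on the length used. Per length, the transcript of STING was the scarcest of the measured members in these epithelial cultures, and the transcript of MAVS the most abundant.

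The differences between genotypes were small. Against WT, the log2 difference of any member lay between -0.23 (Irf3 in Atg16l1ΔIEC) and 0.37 (Tmem173 in Atg16l1ΔIEC). In Rnaseh2bΔIEC against WT organoids 1 of 6 members passed a limma adjusted p of 0.05, where 26.7% of all 12802 tested genes did. In Atg16l1ΔIEC against WT organoids 3 of 6 passed, where the share of all tested genes was 19.1%. In Atg16l1/Rnaseh2bΔIEC against WT organoids 1 of 6 passed, against 16.1% of tested genes. Between Atg16l1/Rnaseh2bΔIEC and Rnaseh2bΔIEC organoids limma called 0 of 6 members (25.5% of tested genes), with 1 at an unadjusted p under 0.05. Between Atg16l1/Rnaseh2bΔIEC and Atg16l1ΔIEC organoids limma called 0 of 6 (25.1% of tested genes), and 2 had an unadjusted p under 0.05. With a pseudocount of 1, 4944 and 5021 of 12802 tested genes had a limma unadjusted p under 0.05 in these 2 comparisons. The members' median difference was -0.07, -0.05 and -0.01 in the comparisons with WT in the same order, beside a median of 0.00 for all tested genes.

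**Figure D1:**
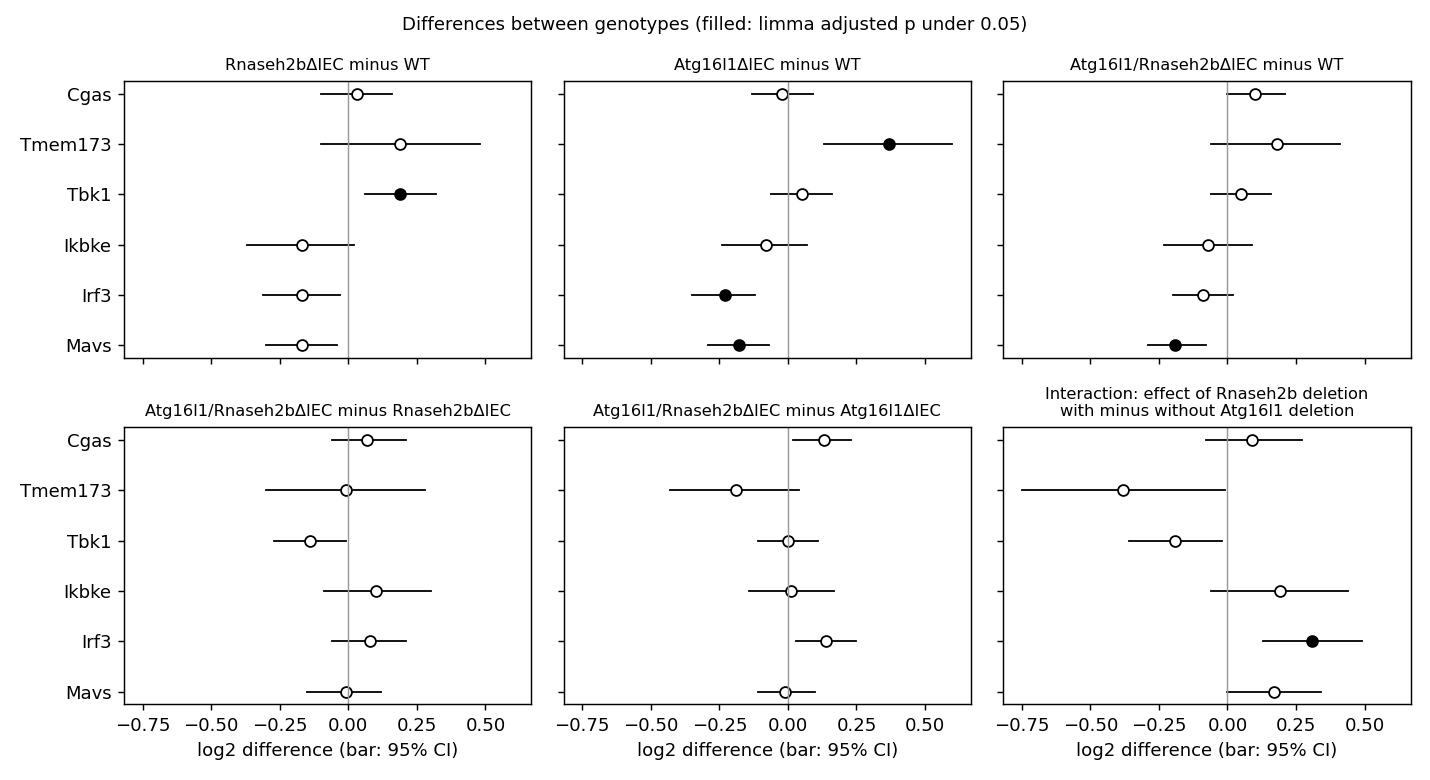
Log2 difference of each measured member (points) with its 95% confidence interval (bars) in 6 panels, 1 per comparison, from the limma fit of all 14 libraries; filled points passed an adjusted p of 0.05. No interval against WT reaches beyond 0.60, the 3 calls of Atg16l1ΔIEC against WT are the rise of Tmem173 and the falls of Irf3 and Mavs, and no point is filled in the comparisons of Atg16l1/Rnaseh2bΔIEC with either single deletion.

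Cgas (ENSMUSG00000032344, chromosome 9, 78430526 to 78443237 in GRCm38), the DNA sensor, showed no call. Its value was 8.62, 8.75, 8.61 and 8.64 in WT, 8.69, 8.64, 8.65 and 8.57 in Atg16l1ΔIEC, 8.68 and 8.70 in Rnaseh2bΔIEC, and 8.87, 8.70, 8.68 and 8.79 in Atg16l1/Rnaseh2bΔIEC libraries. The 4 genotypes overlapped. The largest difference was that between Atg16l1/Rnaseh2bΔIEC and Atg16l1ΔIEC organoids (0.13, standard error 0.05, limma adjusted p = 0.084). Against WT the 95% confidence interval ran from -0.10 to 0.16 in Rnaseh2bΔIEC and from -0.13 to 0.09 in Atg16l1ΔIEC organoids.

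Tmem173 (ENSMUSG00000024349), which encodes STING, was 5.20, 5.19, 5.23 and 5.16 in WT, 5.54, 5.99, 5.36 and 5.35 in Atg16l1ΔIEC, 5.40 and 5.36 in Rnaseh2bΔIEC, and 5.35, 5.32, 5.50 and 5.32 in Atg16l1/Rnaseh2bΔIEC libraries. Every library with a deletion was above every WT library, and Atg16l1ΔIEC libraries 1 and 2 were the highest. Tmem173 rose by 0.37 in Atg16l1ΔIEC against WT organoids (standard error 0.11, limma adjusted p = 0.031, exact two-sided permutation p = 0.029, the smallest that 4 against 4 allows). Treating pairs of libraries as related gave a limma adjusted p of 0.27, and adding lane as a covariate one of 0.15. The call was also lost with only the groups compared, without any single WT library or without Atg16l1ΔIEC library 1. At a mean of 5.38, Tmem173 was under the stricter filter of 50 on the linear scale and was not tested there. Without Atg16l1ΔIEC library 2 the rise was 0.23, and the call was kept. The differences of 0.19 in Rnaseh2bΔIEC (limma adjusted p = 0.32) and 0.18 in Atg16l1/Rnaseh2bΔIEC (limma adjusted p = 0.28) against WT did not pass. The 3 comparisons share the WT libraries.

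Tbk1 (ENSMUSG00000020115, chromosome 10, 121546455 to 121586787), the kinase that phosphorylates IRF3, was 10.19, 10.24, 10.21 and 10.14 in WT, 10.27, 10.23, 10.24 and 10.24 in Atg16l1ΔIEC, 10.39 and 10.38 in Rnaseh2bΔIEC, and 10.39, 10.30, 10.13 and 10.15 in Atg16l1/Rnaseh2bΔIEC libraries. Both Rnaseh2bΔIEC libraries were above all WT libraries, and Tbk1 rose by 0.19 there (standard error 0.06, limma adjusted p = 0.035). The exact permutation p was 0.067, the smallest that 2 against 4 allows. In Atg16l1/Rnaseh2bΔIEC organoids libraries 1 and 2, run in lane 2, lay above every WT library, and libraries 3 and 4, run in lane 1, fell within or just below the WT range. After adjustment for lane, estimated from the Atg16l1/Rnaseh2bΔIEC libraries alone, the difference between Rnaseh2bΔIEC and WT was -0.02 (limma adjusted p = 0.86). Its adjusted p was 0.18 with pairs of libraries treated as related, and the call was lost without WT library 1, 3 or 4 or without either Rnaseh2bΔIEC library.

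Ikbke (ENSMUSG00000042349, chromosome 1, 131254343 to 131279606), which encodes the related kinase IKKε, was 9.98, 9.94, 10.09 and 10.13 in WT, 9.82, 9.89, 10.05 and 10.05 in Atg16l1ΔIEC, 9.86 and 9.87 in Rnaseh2bΔIEC, and 9.77, 9.93, 10.10 and 10.06 in Atg16l1/Rnaseh2bΔIEC libraries. Libraries 1 and 2 were lower than 3 and 4 in every genotype that had all 4. No comparison passed, and the largest difference was -0.17 in Rnaseh2bΔIEC against WT organoids (standard error 0.09, limma adjusted p = 0.17). Over the 14 libraries, which share lanes and pairs, Ikbke and Tbk1 ran in opposite directions (Pearson r = -0.83, Spearman rho = -0.85).

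Irf3 (ENSMUSG00000003184, chromosome 7, 44997648 to 45002848), the transcription factor, was 10.67, 10.74, 10.64 and 10.72 in WT, 10.44, 10.35, 10.55 and 10.50 in Atg16l1ΔIEC, 10.53 and 10.52 in Rnaseh2bΔIEC, and 10.45, 10.64, 10.62 and 10.69 in Atg16l1/Rnaseh2bΔIEC libraries. All Atg16l1ΔIEC and Rnaseh2bΔIEC libraries were below all WT libraries. Of the Atg16l1/Rnaseh2bΔIEC libraries, only library 1 and library 3 were below the WT range. Irf3 fell by 0.23 in Atg16l1ΔIEC against WT organoids (standard error 0.05, limma adjusted p = 0.0081, exact permutation p = 0.029), and this call was kept without each library in turn. Neither the value of -0.17 in Rnaseh2bΔIEC (standard error 0.06, limma adjusted p = 0.067) nor that of -0.09 in Atg16l1/Rnaseh2bΔIEC organoids (standard error 0.05, limma adjusted p = 0.24) passed against WT.

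The Irf3 difference linked to Rnaseh2b deletion was -0.17 between Rnaseh2bΔIEC and WT and 0.14 (standard error 0.05, limma adjusted p = 0.063) between Atg16l1/Rnaseh2bΔIEC and Atg16l1ΔIEC organoids, and these 2 values differed by 0.31 (standard error 0.08, limma adjusted p = 0.011). The groups of the second value did not match in the Atg16l1 transcript, which was higher by 1.46 in Atg16l1/Rnaseh2bΔIEC than in Atg16l1ΔIEC organoids (standard error 0.12, limma adjusted p = 2.0e-05). The Rnaseh2b transcript differed by -1.36 between Rnaseh2bΔIEC and WT and by -0.81 between Atg16l1/Rnaseh2bΔIEC and Atg16l1ΔIEC organoids. The gap between these Rnaseh2b values was not called with lane as a covariate (limma adjusted p = 0.079) or with pairs of libraries treated as related (limma adjusted p = 0.066). Transcript level does not measure deletion or protein, and its part in the Irf3 values was not tested. Irf3 was the only member of 6 called for the difference between its 2 values, where 35.1% of all tested genes were called. With lane as a covariate the difference was 0.14 (limma adjusted p = 0.44), and the Irf3 fall in Atg16l1ΔIEC was -0.12 (limma adjusted p = 0.35). The adjusted p was 0.15 for the difference and 0.17 for the fall when pairs of libraries were treated as related. Bcl2l12, which overlaps the start of Irf3 on the opposite strand and was chosen for that position after its values were seen, had differences of -0.16, -0.10 and -0.04 in Rnaseh2bΔIEC, Atg16l1ΔIEC and Atg16l1/Rnaseh2bΔIEC against WT, with no call.

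Mavs (ENSMUSG00000037523, chromosome 2, 131234063 to 131248025), the adaptor of RNA sensing, was 11.42, 11.36, 11.25 and 11.30 in WT, 11.06, 11.07, 11.28 and 11.21 in Atg16l1ΔIEC, 11.15 and 11.17 in Rnaseh2bΔIEC, and 11.21, 11.14, 11.14 and 11.11 in Atg16l1/Rnaseh2bΔIEC libraries. It was below every WT library in all libraries with a deletion but Atg16l1ΔIEC library 3. Mavs fell by 0.18 in Atg16l1ΔIEC (standard error 0.05, limma adjusted p = 0.023) and by 0.19 in Atg16l1/Rnaseh2bΔIEC organoids (standard error 0.05, limma adjusted p = 0.026). The difference was -0.17 in Rnaseh2bΔIEC (standard error 0.06, limma adjusted p = 0.053). With lane as a covariate the call was kept in Atg16l1/Rnaseh2bΔIEC and lost in Atg16l1ΔIEC (limma adjusted p = 0.092). The adjusted p with pairs of libraries treated as related was 0.15 in Atg16l1ΔIEC and 0.18 in Atg16l1/Rnaseh2bΔIEC. The call in Atg16l1ΔIEC was lost with only the groups compared, and without WT library 1 or 2 or Atg16l1ΔIEC library 1 or 2. That in Atg16l1/Rnaseh2bΔIEC was lost without WT library 1 or 2 or Atg16l1/Rnaseh2bΔIEC library 2 or 4.

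**Figure D2:**
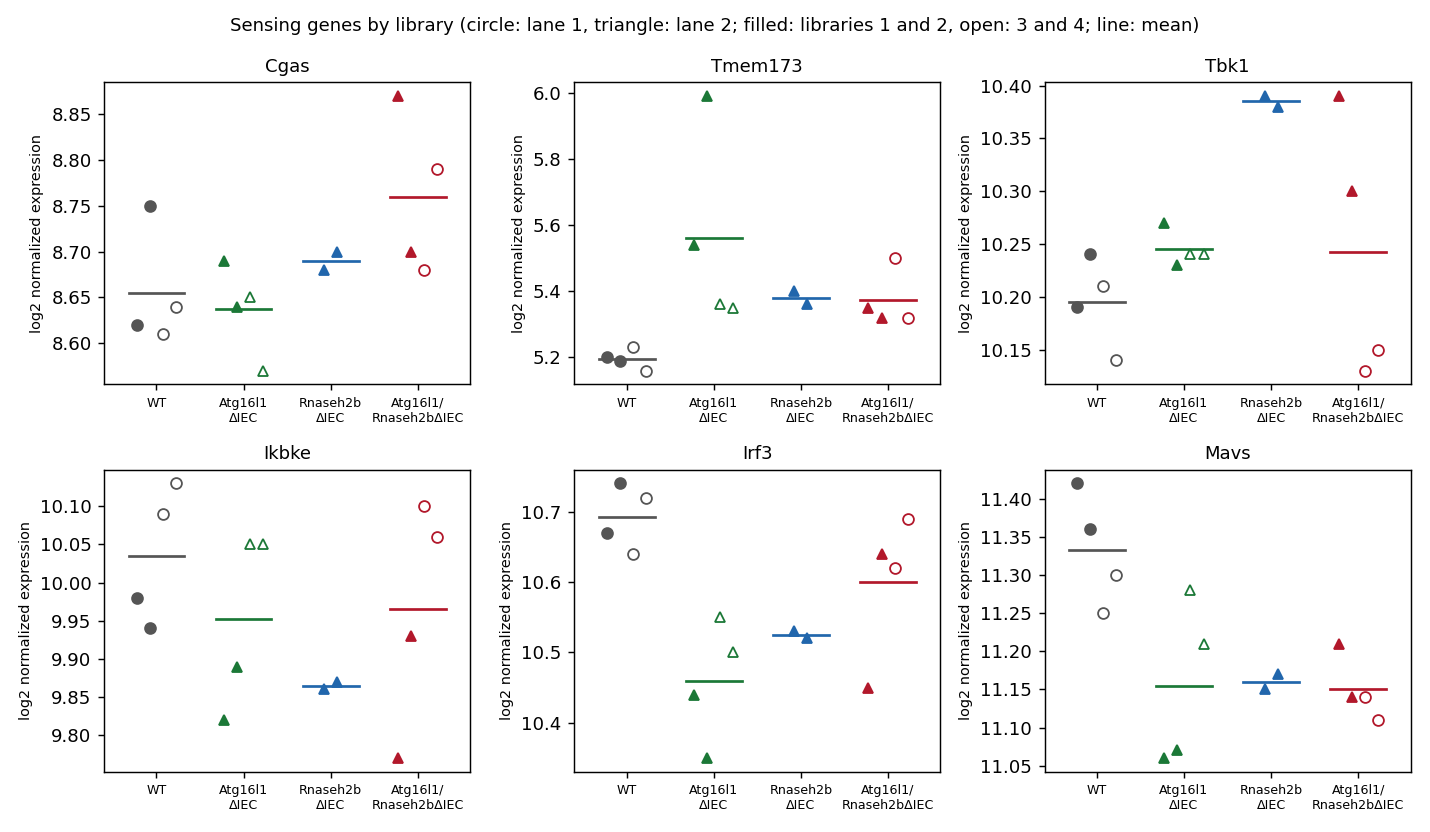
Normalized expression (log2, vertical axes, each panel with its own range that does not start at 0) of the 6 measured members in each of 14 libraries, by genotype; circles are lane 1, triangles lane 2, filled points libraries 1 and 2, open points libraries 3 and 4, and lines genotype means. Tmem173 is above the WT libraries in all other libraries. Tbk1 of Atg16l1/Rnaseh2bΔIEC organoids splits both by lane and by library pair, from 10.13 to 10.39. The lowest Irf3 value is 10.35 in an Atg16l1ΔIEC library.

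In Rnaseh2bΔIEC against WT organoids the libraries of 5 of 6 members did not overlap, where 55.5% of tested genes did not. The count was 2 of 6 in Atg16l1ΔIEC (24.6% of tested genes) and 2 of 6 in Atg16l1/Rnaseh2bΔIEC (22.3% of tested genes). With pairs of libraries treated as related, limma called 0 members in each comparison with WT, while 2, 3 and 1 of 6 had an unadjusted p under 0.05 in Rnaseh2bΔIEC, Atg16l1ΔIEC and Atg16l1/Rnaseh2bΔIEC organoids. Of all 12802 tested genes, 2845, 2233 and 2036 had an unadjusted p under 0.05 in that fit. Enterocyte markers moved with the Rnaseh2bΔIEC libraries: 7 of 8 rose against WT, with a median of 1.24, and their summed level ranged from 17.77 to 17.91 against 16.64 to 17.28 in WT. Goblet cell markers (3 of 5, median -0.61), tuft cell markers (3 of 4, median -0.39) and stem cell markers (2 of 5, median -0.31) fell there. In Atg16l1ΔIEC against WT organoids 5 of 5 stem cell markers fell with a median of -0.52, as did 3 of 5 goblet cell (median -0.56) and 2 of 4 enteroendocrine markers (median -0.40). In Atg16l1/Rnaseh2bΔIEC against WT organoids 3 of 5 Paneth cell markers rose with a median of 0.56. In bulk libraries a shift in cell types and a change per cell cannot be told apart, and the part of these markers in the members' differences was not tested.

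**Figure D3:**
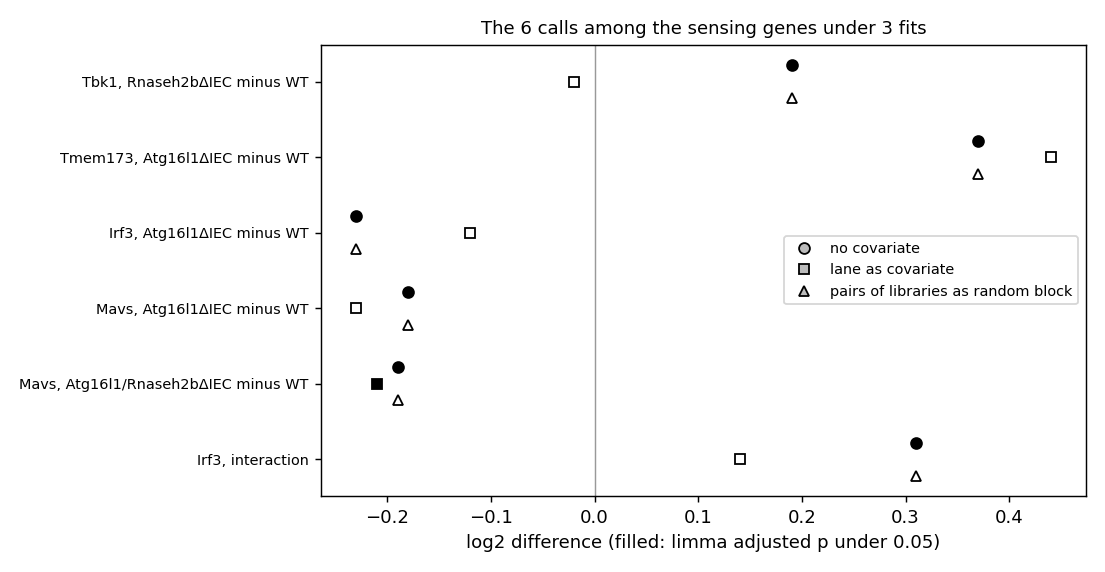
Log2 difference (horizontal axis) of the 6 calls among the members under 3 fits, with no covariate (circles), with lane as a covariate (squares) and with pairs of libraries as a random block (triangles); filled symbols passed a limma adjusted p of 0.05. The pair fit keeps every difference by design, since all pairs are of equal size within a genotype, and no triangle is filled. With lane Tbk1 moves from 0.19 to -0.02 and only Mavs in Atg16l1/Rnaseh2bΔIEC organoids stays filled.

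Genes around the members were grouped by role, and their counts against WT stand beside the shares of all tested genes called, 26.7% in Rnaseh2bΔIEC, 19.1% in Atg16l1ΔIEC and 16.1% in Atg16l1/Rnaseh2bΔIEC organoids. Of 10 tested genes of DNA sensing and sensor cofactors, 1 rose and 1 fell in Rnaseh2bΔIEC, 0 were called by limma in Atg16l1ΔIEC (1 at an unadjusted p under 0.05) and 3 rose in Atg16l1/Rnaseh2bΔIEC against WT organoids. With a pseudocount of 1, 4385 of 12802 tested genes had a limma unadjusted p under 0.05 in Atg16l1ΔIEC against WT. Xrcc5, a subunit of the Ku complex that binds DNA ends, rose by 0.35 in Atg16l1/Rnaseh2bΔIEC organoids (standard error 0.07, limma adjusted p = 0.0053). Prkdc, the catalytic subunit of the DNA-dependent kinase, was higher by 0.32 in Atg16l1/Rnaseh2bΔIEC against Atg16l1ΔIEC organoids (standard error 0.07, limma adjusted p = 0.0064). Both calls were lost with pairs of libraries treated as related.

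Among 9 tested genes of RNA sensing and Toll-like receptor signalling, 2 rose and 0 fell in Atg16l1ΔIEC against WT organoids. In each of the other comparisons with WT, 1 rose and 1 fell. The genes that rose in Atg16l1ΔIEC were Nlrx1, a mitochondrial protein described as a brake on MAVS, higher by 0.20 (standard error 0.05, limma adjusted p = 0.0082), together with the Toll-like receptor adaptor Myd88, higher by 0.22 (standard error 0.04, limma adjusted p = 0.0045). Ticam1, the adaptor of Toll-like receptor 3, fell by 0.28 in Atg16l1/Rnaseh2bΔIEC against WT organoids (standard error 0.05, limma adjusted p = 0.0033). The calls of Nlrx1 and Myd88 were lost with lane as a covariate, and all 3 were lost with pairs of libraries treated as related.

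Of 11 tested genes of nucleic acid clearance and editing, 2 rose and 1 fell in Rnaseh2bΔIEC, 2 rose in Atg16l1ΔIEC, and 2 rose and 1 fell in Atg16l1/Rnaseh2bΔIEC against WT. The gene that fell was Rnaseh2b itself in both. Adar, which edits double-stranded RNA, rose by 0.21 in Atg16l1ΔIEC organoids (standard error 0.05, limma adjusted p = 0.012), a call lost with pairs of libraries treated as related. Dnase1, a secreted DNA nuclease, was 6.76, 6.42, 5.87 and 5.93 in Atg16l1/Rnaseh2bΔIEC libraries, against 7.50 and 7.66 in Rnaseh2bΔIEC and 7.22, 6.75, 6.56 and 6.52 in WT. It fell by 1.33 in Atg16l1/Rnaseh2bΔIEC against Rnaseh2bΔIEC organoids (standard error 0.24, limma adjusted p = 0.0023), and this call was kept with pairs of libraries treated as related. In the same comparison 7 of 8 enterocyte markers fell (median -1.32) and 5 of 5 goblet cell markers rose (median 0.79), and their part in the differences was not tested.

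Of 16 tested genes of STING trafficking and turnover, 1 rose and 0 fell in each comparison with WT. The gene was Surf4, which returns cargo from the Golgi to the endoplasmic reticulum, in Rnaseh2bΔIEC (0.17, standard error 0.04, limma adjusted p = 0.0094) and Atg16l1ΔIEC organoids (0.13, standard error 0.03, limma adjusted p = 0.021), and Scap, the partner of sterol-regulated factors, in Atg16l1/Rnaseh2bΔIEC organoids (0.22, standard error 0.06, limma adjusted p = 0.018). These 3 calls were lost with lane as a covariate and with pairs of libraries treated as related. Among 6 tested genes of cGAMP transport and hydrolysis, Smpdl3a, a cGAMP-degrading enzyme, rose in Rnaseh2bΔIEC against WT organoids by 0.35 (standard error 0.09, limma adjusted p = 0.011), whereas it fell by 0.51 in Atg16l1/Rnaseh2bΔIEC against Rnaseh2bΔIEC organoids (standard error 0.09, limma adjusted p = 0.0018), beside the same fall of enterocyte markers. The fall was kept with pairs of libraries treated as related, while the rise was lost there and with lane as a covariate. Enpp1, which hydrolyses cGAMP outside cells, fell by 0.23 in Atg16l1ΔIEC organoids (standard error 0.07, limma adjusted p = 0.037), but after adjustment for lane the difference was 0.01 (limma adjusted p = 0.95).

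Of 17 tested kinase scaffolds, IRF and NF-kB factors, 3 rose and 1 fell in Rnaseh2bΔIEC, 1 rose and 1 fell in Atg16l1ΔIEC, and 1 rose and 2 fell in Atg16l1/Rnaseh2bΔIEC against WT, beside 26.7%, 19.1% and 16.1% of all tested genes. Tnfaip3, which encodes the deubiquitinase A20 that restrains this signalling, was 9.47, 9.46, 9.29 and 9.26 in WT, 8.63, 8.74, 8.95 and 8.90 in Atg16l1ΔIEC, 8.47 and 8.63 in Rnaseh2bΔIEC, and 8.86, 9.12, 9.01 and 9.01 in Atg16l1/Rnaseh2bΔIEC libraries. It was below every WT library in all other libraries. It fell by 0.83 in Rnaseh2bΔIEC (standard error 0.10, limma adjusted p = 1.3e-04), by 0.57 in Atg16l1ΔIEC (standard error 0.08, limma adjusted p = 4.7e-04) and by 0.37 in Atg16l1/Rnaseh2bΔIEC organoids (standard error 0.08, limma adjusted p = 0.0097). The first and the second call were kept with pairs of libraries treated as related, and the third was lost. Traf3, a ligase that links STING and MAVS to TBK1, rose by 0.18 in Atg16l1ΔIEC (standard error 0.03, limma adjusted p = 0.0012) and by 0.16 in Atg16l1/Rnaseh2bΔIEC organoids (standard error 0.03, limma adjusted p = 0.0043), and both calls were lost with pairs of libraries treated as related.

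At the output of the pathway, the ligand genes Ifnb1, Ifnl2 and Ifnl3 were not analysed here. Of 17 tested interferon targets, 2 rose in Rnaseh2bΔIEC, 4 in Atg16l1ΔIEC and 4 in Atg16l1/Rnaseh2bΔIEC against WT organoids, and 0 fell in any of the 3. The shares of all tested genes called in either direction were 26.7%, 19.1% and 16.1%. The targets' median differences were 0.12, 0.25 and 0.25, beside medians of 0.00 for all tested genes. The mean of these 17 targets was 6.17, 6.15, 6.29 and 6.18 in WT, 6.32, 6.47, 6.68 and 6.58 in Atg16l1ΔIEC, 6.28 and 6.25 in Rnaseh2bΔIEC, and 6.11, 6.25, 6.76 and 6.87 in Atg16l1/Rnaseh2bΔIEC libraries. The Atg16l1/Rnaseh2bΔIEC libraries thus held both the lowest and the highest value of all 14, split by pair and by lane. Cxcl10, an interferon-induced chemokine, was 4.54, 4.57, 4.59 and 4.62 in WT, 4.93, 5.41, 5.21 and 5.11 in Atg16l1ΔIEC, 4.58 and 4.61 in Rnaseh2bΔIEC, and 4.74, 5.10, 5.77 and 6.03 in Atg16l1/Rnaseh2bΔIEC libraries. It rose by 0.83 in Atg16l1/Rnaseh2bΔIEC against WT organoids (standard error 0.21, limma adjusted p = 0.021). This call was lost with only the groups compared, without WT library 1 or 2, and with pairs of libraries treated as related (limma adjusted p = 0.15). Oas1a, an antiviral enzyme, rose against WT organoids by 0.70 in Atg16l1ΔIEC (standard error 0.11, limma adjusted p = 9.9e-04) and by 0.40 in Rnaseh2bΔIEC (standard error 0.14, limma adjusted p = 0.044). It was 7.26, 7.30, 7.66 and 7.82 in Atg16l1/Rnaseh2bΔIEC libraries and 6.79 to 6.96 in WT. Ifit2, another target, rose by 0.26 in Rnaseh2bΔIEC against WT organoids (standard error 0.08, limma adjusted p = 0.021). Both calls in Rnaseh2bΔIEC were lost with pairs of libraries treated as related.

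The comparisons within a lane differ both in the control and in the Atg16l1/Rnaseh2bΔIEC libraries used, so these cannot be told apart. In lane 1, 16 of 17 targets were higher in Atg16l1/Rnaseh2bΔIEC libraries 3 and 4 than in WT, with a median of 0.60. In lane 2, 0 of 17 were higher in Atg16l1/Rnaseh2bΔIEC libraries 1 and 2 than in Atg16l1ΔIEC libraries, with a median of -0.31, and 6 of 17 were higher than in Rnaseh2bΔIEC libraries, with a median of -0.05. With pairs of libraries treated as related, limma called 0 of the 17 targets in Rnaseh2bΔIEC, 1 in Atg16l1ΔIEC and 0 in Atg16l1/Rnaseh2bΔIEC against WT, with 1, 8 and 5 at an unadjusted p under 0.05. The gene called was Oas1a. In that fit 728, 384 and 85 of the 12802 tested genes were called, and 2845, 2233 and 2036 had an unadjusted p under 0.05.

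The naming rule gave 60 calls among these pathway genes. With pairs of libraries treated as related 10 of the 60 were kept, 4 of them of Rnaseh2b itself and 6 of other genes, 25 were lost with lane as a covariate, and 38 were lost when at least 1 single library was left out. Among the calls described with values, those of Surf4, Smpdl3a, Ifit2 and Oas1a in Rnaseh2bΔIEC against WT organoids were lost without either Rnaseh2bΔIEC library. The call of Oas1a in Rnaseh2bΔIEC was also lost without any single WT library. That of Surf4 in Atg16l1ΔIEC was lost without WT library 3 or 4 or Atg16l1ΔIEC library 3, that of Scap without WT library 1 or 2, and that of Enpp1 without WT library 1, 2 or 3 or Atg16l1ΔIEC library 1, 3 or 4.

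**Figure D4:**
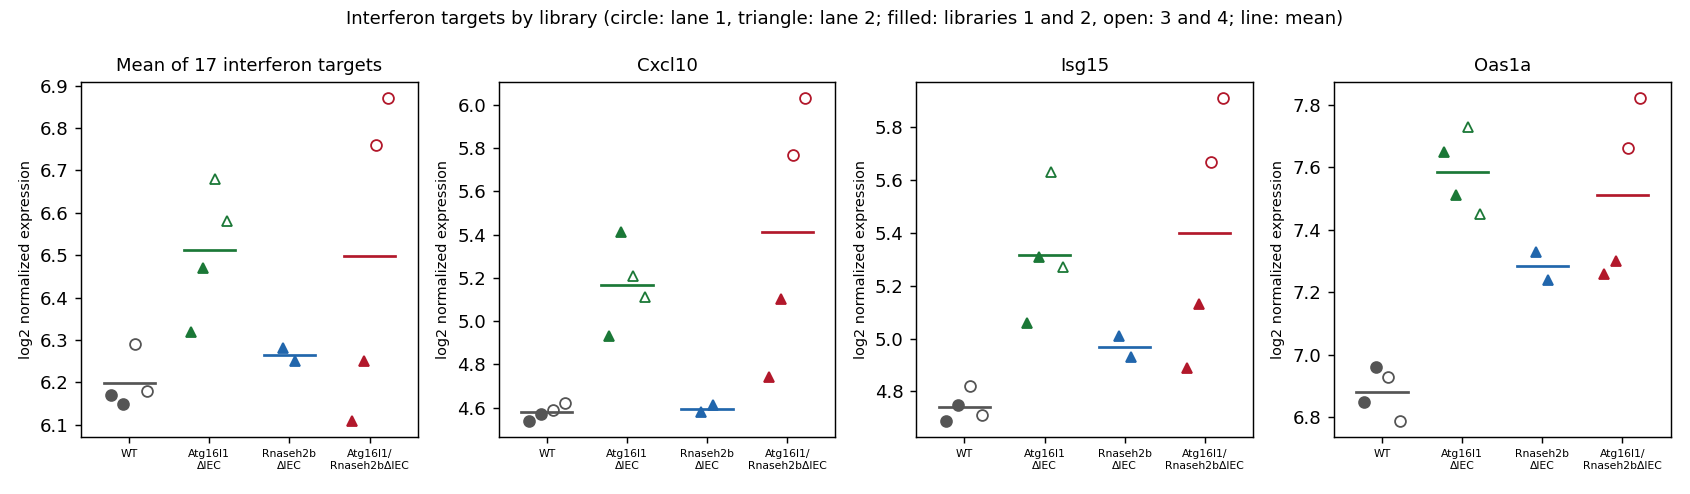
Normalized expression (log2, vertical axes, each panel with its own range that does not start at 0) of the mean of 17 interferon targets and of Cxcl10, Isg15 and Oas1a in each of 14 libraries, by genotype; symbols mark lane and library pair as circles (lane 1), triangles (lane 2), filled (libraries 1 and 2) and open (3 and 4), and lines are genotype means. WT libraries lie between 6.15 and 6.29 in the first panel, while Atg16l1/Rnaseh2bΔIEC libraries 1 and 2 lie at 6.11 and 6.25 and libraries 3 and 4 at 6.76 and 6.87.

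Over all 14 libraries, the genes whose profile was most like that of each member were named by their Pearson r, the highest among the tested genes outside the members. For Cgas these were Rbm15b (r = 0.87), Hr (r = 0.85) and Mmachc (r = 0.85), and for Tmem173 they were Commd2 (r = 0.89), Spry4 (r = 0.88) and Itga5 (r = 0.85). For Tbk1 they included Eif2ak1 (r = 0.96) and Cpped1 (r = 0.95), and for Ikbke Klf10 (r = 0.96), Aasdh (r = 0.94) and Mink1 (r = 0.94). For Irf3 they were Gm11437 (r = 0.92), Zfp977 (r = 0.90) and Cspp1 (r = 0.90), and for Mavs Nprl2 (r = 0.91), 5430403G16Rik (r = 0.89) and Lrrc8a (r = 0.89). These values are descriptions, since the libraries share pairs and lanes and each gene was picked for its rank among all tested genes outside the members.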

How the data were processed

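RNA of small intestinal organoids was sequenced by the authors on a HiSeq3000. By their methods, the authors trimmed with cutadapt, aligned to GRCm38 with TopHat2, obtained gene values from HTSeq and ran DESeq2 for differential expression. The strand setting of the counting is not given in the sources used here. The deposited values are log2 normalized expression of 18781 genes in 14 libraries, and the transformation is not named. Read totals could not be taken from them, so the depth stays unknown and count tests were not used. The authors left out 2 Rnaseh2bΔIEC samples for their read counts, and these were not analysed here.

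The 12802 genes whose mean reached 3.32, which is 10 on the linear scale, entered 1 limma 3.58.1 fit in R 4.3.3 of all 14 libraries with a mean for each genotype, a variance trend, no covariate, and Benjamini-Hochberg adjustment at 0.05. The limma fit was tested on simulated data in which libraries were independent. That test did not cover lanes or relations within pairs of libraries, whose consensus correlation was 0.65 here. The members and gene lists were chosen with earlier results of these data known. The genes named are the members, the deleted genes, up to 2 of the largest rises and 2 of the largest falls past the threshold without overlap per list and comparison, the ligand genes Ifnb1, Ifnl2, Ifnl3 with Cxcl10, and the 3 genes most like each member, of which 1 is not reported here. Exact permutation tests were two-sided. Alternatives were other filters, pseudocounts and scalings, a lane covariate, a block for the replicate number, libraries 1 and 2 or 3 and 4 of a genotype as a random block or averaged, fits of only the groups compared or within a lane, no mean trend, and leaving out each library, and for genes other than the members these were added after seeing the data. Coordinates and exon lengths are from GENCODE M21, promoters from RefSeq on GRCm38.p6 (6 of 7 members matched). Figures were drawn with matplotlib 3.10.9.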

Additional observations from a re-analysis of the deposited data

Results flagged for a closer look

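Results were marked for a closer look where the difference of Atg16l1/Rnaseh2bΔIEC from Atg16l1ΔIEC was unlike that of Rnaseh2bΔIEC from WT organoids (limma adjusted p under 0.05), or where 1 of 4 libraries stood apart by Dixon's test. Among the members, only Irf3 was marked, with a difference of 0.31 between these 2 values. None of the 18 member groups held a library that stood apart.

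For the deleted genes it was 1.40 for Atg16l1 and 0.55 for Rnaseh2b. The Rnaseh2b call was lost with lane as a covariate (limma adjusted p = 0.079) and with pairs of libraries treated as related (limma adjusted p = 0.066), while that of Atg16l1 was kept under both. Among the other named genes the difference was 1.02 for Tnfaip3, 0.31 for Prkdc, 0.30 for Enpp1 and 0.19 for Pld3. It was -1.79 for Dnase1, -0.64 for Smpdl3a, -0.48 for Oas1a, -0.29 for Tbkbp1, -0.28 for Myd88, -0.28 for Nlrx1, -0.28 for Surf4, -0.23 for Skiv2l and -0.15 for Traf3. The share of all tested genes with such a difference was 35.1%. Atg16l1 in WT library 2 (9.54, nearest 9.44), Chuk in WT library 3 (11.25, nearest 11.18) and G3bp1 in Atg16l1/Rnaseh2bΔIEC library 1 (12.60, nearest 12.52) stood apart, 3 of 96 groups, where chance alone marks about 1 in 20.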

How the results depend on the processing

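Depth and the number of independent cultures are unknown, low genes are compressed, and lane is nearly confounded with genotype. Rnaseh2bΔIEC rests on 2 libraries, treated as 1 pair although a relation between them could not be checked. Same-numbered libraries of different genotypes correlated between -0.50 and 0.30 in 12 pairs, so the replicate number does not pair the samples. With it as a block, 0 members were called by limma in Rnaseh2bΔIEC against WT, beside 2890 of 12802 tested genes.

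The members called were 1, 3, 1, 0, 0 and 1 in Rnaseh2bΔIEC, Atg16l1ΔIEC and Atg16l1/Rnaseh2bΔIEC against WT, in Atg16l1/Rnaseh2bΔIEC against Rnaseh2bΔIEC and against Atg16l1ΔIEC, and for the difference between the Rnaseh2b effects. With pairs of libraries as a random block or averaged the count was 0 in every comparison. With averaged pairs 3 residual degrees of freedom remain, and 0 to 2 members had an unadjusted p under 0.05, as did 1311 to 2773 of 12802 tested genes. With lane as a covariate the counts were 0, 0, 1, 0, 1 and 0, beside 1504, 1586, 1418, 3466, 3976 and 2580 of 12802 tested genes. In Rnaseh2bΔIEC against WT the count was 0 with no filter, 2 with upper quartile scaling, 2 with total scaling and 4 with only the groups compared. The tested genes called there were 3232 of 18781, then 3452, 3505 and 4054 of 12802. In Atg16l1ΔIEC against WT it was 1 with only the groups compared (2383 of 12802 tested genes). With total scaling it was 1 in Atg16l1/Rnaseh2bΔIEC against Atg16l1ΔIEC (3232 of 12802 tested genes) and 2 for the difference between effects (4711). Leaving out each library gave 0 to 1, 1 to 3, 0 to 1, 0 to 1, 0 to 1 and 1 to 2 members in the same order. Of all tested genes these fits called 1135 to 3287, 1659 to 2465, 1001 to 2074, 757 to 3288, 1827 to 3470 and 2706 to 4714. Without Atg16l1/Rnaseh2bΔIEC library 1, Tbk1 (-0.19) was called against Rnaseh2bΔIEC, Irf3 (0.19) against Atg16l1ΔIEC and Tbk1 (-0.24) for the difference between effects. Without WT library 3, Mavs (-0.20) was called in Rnaseh2bΔIEC, and without Atg16l1ΔIEC library 3 Mavs (0.21) for the difference between effects.

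Across all tested genes, the random block left 728, 384, 85, 692, 478 and 1553 calls of 3424, 2450, 2063, 3262, 3218 and 4499, and averaged pairs left 0, 1, 0, 0, 0 and 0.

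Of 738 member values, 43 changed sign, 41 of them with no call on either side. Many of the 738 could not change sign, because their fits keep the genotype means. These were the other filters, no mean trend, only the groups compared and both fits of library pairs. With lane as a covariate the values against WT were -0.02 for Cgas, -0.02 for Tbk1 and 0.05 for Ikbke in Rnaseh2bΔIEC, -0.16 for Tbk1 and 0.14 for Ikbke in Atg16l1ΔIEC, and -0.05 for Tbk1 and 0.04 for Ikbke in Atg16l1/Rnaseh2bΔIEC, the last pair also within lane 1. Against Rnaseh2bΔIEC they were -0.01 for Ikbke and 0.01 for Mavs, and against Atg16l1ΔIEC 0.10 for Tbk1 (limma adjusted p = 0.046), -0.10 for Ikbke and 0.02 for Mavs, with the same values within lane 2. Lane was estimated from Atg16l1/Rnaseh2bΔIEC libraries alone, so each within-lane difference must equal the lane-covariate difference. The within-lane values here and below are thus not a second check. With lane as a covariate the difference between effects became 0.12 for Tbk1, -0.15 for Ikbke and -1.24 for Cxcl10 (limma adjusted p = 0.0075). Enpp1 in Atg16l1ΔIEC became 0.01, Bcl2l12 became 0.01 in Atg16l1ΔIEC and in Atg16l1/Rnaseh2bΔIEC against WT, the last also within lane 1, and Cxcl10 became -0.25 in Atg16l1/Rnaseh2bΔIEC against Atg16l1ΔIEC, also within lane 2. Total scaling gave -0.01 for Cgas and -0.02 for Cxcl10 in Rnaseh2bΔIEC against WT, 0.04 for Tmem173 and 0.04 for Mavs against Rnaseh2bΔIEC, and 0.02 for Tbk1 and 0.01 for Mavs against Atg16l1ΔIEC. Upper quartile scaling gave 0.01 for Tmem173 and 0.00 for Mavs against Rnaseh2bΔIEC, and the replicate block 0.05 for Tmem173. Leaving out single libraries ranged from -0.04 to 0.01 for Cgas in Atg16l1ΔIEC against WT, from -0.05 to 0.01 for Tmem173 against Rnaseh2bΔIEC, and against Atg16l1ΔIEC from -0.05 to 0.04 for Tbk1, -0.03 to 0.08 for Ikbke and -0.04 to 0.04 for Mavs. The causes were not tested.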
